A study of Mus musculus with 6 samples.

Results

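Two-pore potassium channels were followed in bulk RNA-seq of mouse dorsal root ganglia, which hold the cell bodies of sensory neurons. The 9 members, taken by gene symbol, were Kcnk1, Kcnk2, Kcnk3, Kcnk4, Kcnk6, Kcnk10, Kcnk12, Kcnk13 and Kcnk18, out of 48401 symbols in each file, and all 9 were found in all 6 libraries. The ganglia were L4/5 ganglia of male C57BL/6J mice aged 8 weeks treated with small interfering RNA intrathecally, that is, through the spinal fluid. Of the 6 libraries, 3 came from mice given siNC, taken here as the control siRNA, and 3 from mice given siCLAP, an siRNA against CLAP, which is a long intergenic noncoding RNA. The comparison asked which transcripts differ after knockdown of CLAP, a transcript that the study's title connects with itch. The labels give neither dose, nor time after injection, nor the number of animals per library, so p-values reflect only how these libraries vary, which may be technical. No gene row carries the name CLAP, so the knockdown itself was not checked. Whole ganglia mix neurons, glia, vessels and immune cells, and in such bulk RNA fewer cells of a type and less RNA per cell cannot be told apart.

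Two-pore potassium channels carry the background, or leak, potassium current that holds the resting membrane potential of a cell and so sets how easily a sensory neuron fires. Each subunit has a pair of pore loops, and a channel forms from a pair of subunits. The TREK group (TREK-1 from Kcnk2, TREK-2 from Kcnk10, TRAAK from Kcnk4) opens with membrane stretch, warmth and arachidonic acid. TRESK, from Kcnk18, is opened when calcium activates calcineurin and is best known from sensory neurons. TASK-1, from Kcnk3, closes in acid. THIK-1, from Kcnk13, is inhibited by halothane and is a known potassium channel of microglia, and THIK-2, from Kcnk12, can pair with it. TWIK-1 and TWIK-2, from Kcnk1 and Kcnk6, pass little current at rest in most cells.

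The pore loops are what defines the family, so the coding sequence around the first loop is shown for the members that the results turn on. Capitals mark the 5 codons of the potassium selectivity filter, with 6 bases on each side in lower case, on the coding strand, read from the GENCODE M21 transcripts of mm10. The filter was found by translating each coding sequence and searching for threonine or serine, then a threonine, valine, isoleucine, alanine or leucine, then glycine, then tyrosine, phenylalanine or leucine, then glycine.
Kcnk13 first loop: gtttctACCATAGGGTTTGGGatgaca
Kcnk12 first loop: gtgtcgACCATAGGTTTCGGCatgaca
Kcnk4 first loop: atcactACCATCGGCTATGGCaatata
Kcnk18 first loop: ttcagcACAGTGGGTTATGGCcacatg
Kcnk1 first loop: ctctccACCACAGGCTATGGCcacacg

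The filter pattern occurred exactly 2 times in the coding sequence of all 14 family genes annotated here, the 9 members and 5 others. At the first loop the windows of Kcnk12 and Kcnk13 had 22 of 27 bases identical, as had those of Kcnk2 with Kcnk10 and of Kcnk4 with Kcnk10. This was the highest value of the 36 member pairs, and the lowest was 11, for Kcnk13 with Kcnk18. The longest stretch shared base for base by transcripts of any 2 members was 26 bases, over 36 pairs. The expected counts of all 9 members included fractions, such as 520.5 and 779.83 for Kcnk13 in siNC-1 and siNC-2. The sources used here do not give how reads that match several genes were counted, so the rule behind these fractions is not known.

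On mm10 with the GENCODE M21 annotation, Kcnk13 lies at chr12:99964499-100062682 on the plus strand and Kcnk12 at chr17:87745801-87797994 on the minus strand. Kcnk18 lies at chr19:59219214-59237374 on the plus strand, and Kcnk1 at chr8:125995170-126030685 on the plus strand. Exons of Kcnk13, Kcnk12, Kcnk18, Kcnk10 and Kcnk6 shared 0 bases with exons of other annotated genes. Kcnk4, at chr19:6923966-6934515 on the minus strand, shared 587 of its 4465 exonic bases with Catsperz on the same strand, a sperm calcium channel gene that the files list under its older symbol Tex40. Kcnk1, Kcnk2 and Kcnk3 shared 179, 604 and 229 exonic bases with noncoding genes on the opposite strand. The library kit does not mark strand, so reads in these stretches cannot be assigned by strand. Of the noncoding genes on the opposite strand, only Gm9899, which overlaps Kcnk3, was found by symbol, with 7 to 18 counts per library.

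Library totals ran from 21386768 to 46317735 expected counts, and members other than Kcnk6 had at least 303.17 counts in a library. All 8 pan-neuronal markers listed for the check of the tissue (Rbfox3, Uchl1, Tubb3, Snap25, Elavl4, Stmn2, Prph and Nefl) were detected in all 6 libraries. The libraries siNC-3 and siCLAP-2 stood apart in type I interferon genes, with 689 and 744 summed TPM over 8 genes against 436 to 447 in the other 4. TPM scales a gene's reads by its length and by the depth of the library, and is used below to compare genes. CPM, the counts scaled to library size with TMM factors, is used to compare libraries.

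Kcnk1 was the most abundant member by a wide margin. Its level was 89.4, 83.4 and 90.0 TPM under siNC (libraries 1, 2 and 3, in that order for both groups here and below) and 101, 88.5 and 88.2 TPM under siCLAP, and 89.0% of tested genes had a lower mean. Kcnk12 and Kcnk4 followed, with means of 29.9 and 28.0 TPM over the 6 libraries. Those means did not differ beyond their spread, as the ranges overlapped and Kcnk12 was the higher of the pair in 4 of 6 libraries. Kcnk3, Kcnk18 and Kcnk13 formed a middle group at 15.6, 14.2 and 12.1 TPM in which the ranges of neighbours also overlapped, although Kcnk3 was above Kcnk18 in all 6 libraries. Kcnk2 stood at 9.38 TPM, its range overlapping that of Kcnk13 although it was lower in all 6 libraries. Kcnk10 stood at 4.86 TPM, below every value of Kcnk2. Kcnk6 was close to absent, at 0.331 TPM, from 9.5 to 31 counts per library.

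**Figure D1:**
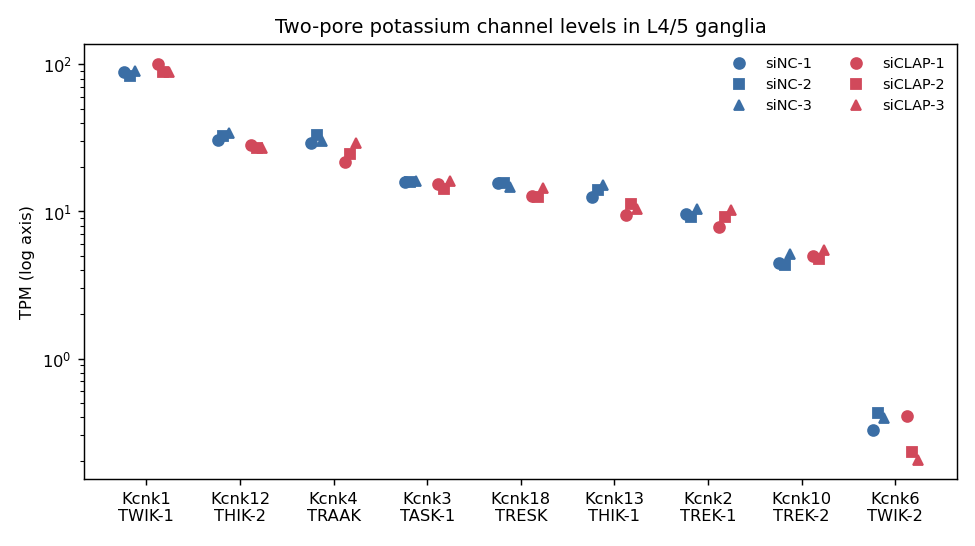
TPM on a log axis of the 9 members, ordered by mean level, with 1 point per library (blue siNC, red siCLAP, shape for the replicate number). Kcnk1 lies between 83.4 and 101 TPM, and Kcnk6 below 1 TPM in all 6 libraries.

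After siCLAP, 0 of the 8 tested members changed in edgeR's quasi-likelihood test at an adjusted p under 0.05, against 0.293% of all 19141 tested genes, those with a mean of at least 1 TPM (0.219% lower and 0.0731% higher in siCLAP). At an unadjusted p under 0.05 there were 4 members, Kcnk13, Kcnk12, Kcnk4 and Kcnk18, all lower in siCLAP. Of all tested genes 17% were at that level, 8.75% lower and 8.22% higher. DESeq2 called 1 member, Kcnk13, as lower, against 4.38% of genes called by DESeq2. Limma voom called 0 members and 0.313% of all genes. Limma on log2(TPM + 0.5) called 0 members and 0% of all genes. The groups did not overlap in CPM for Kcnk13, Kcnk12 and Kcnk18, all lower in siCLAP, as held for 10.7% of all tested genes, with 10.8% separated in the other direction and 21.5% in all. Of the 8 estimates 6 were negative, with a median log2 fold change of −0.14, beside a median of −0.00 and 50.5% negative over all tested genes. The members were chosen with earlier results of these data known, so these counts describe them and test nothing.

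Kcnk13, which encodes THIK-1, had the log2 fold change farthest from 0 among the 8 tested members. It stood at 14.7, 16.9 and 17.9 CPM under siNC and at 11.5, 13.4 and 12.4 CPM under siCLAP. Every siCLAP library lay below every siNC library. The mean was 1.33-fold lower in siCLAP, at 12.4 ± 0.986 against 16.5 ± 1.66 CPM (SD, n = 3 libraries per group). The log2 fold change was −0.41 ± 0.09 (SE), which missed the threshold in edgeR's quasi-likelihood test (adjusted p = 0.0835). The adjusted p was 0.0151 in DESeq2 and 0.00784 in edgeR without the TPM filter, a fit that called 2.75% of its genes, and it lay between 0.0501 and 0.367 under the other 15 alternatives.

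Kcnk12, which encodes THIK-2, was also lower, by less. It stood at 22.5, 24.4 and 25.3 CPM under siNC and 21.3, 20.1 and 20.3 CPM under siCLAP, again without overlap. The log2 fold change was −0.22 ± 0.07 and did not pass (edgeR adjusted p = 0.139). Summed over both THIK genes, the level was 43.1, 46.5 and 49.3 TPM under siNC and 37.8, 38.1 and 37.4 TPM under siCLAP. The siCLAP libraries were close to each other on this sum, and all lay below the siNC libraries.

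In the TREK group the members differed among themselves. Kcnk4, the gene of TRAAK, stood at 19.1, 22.0 and 19.9 CPM under siNC and at 14.6, 16.3 and 19.6 CPM under siCLAP. The groups overlapped, since siCLAP-3 lay above siNC-1. The log2 fold change was −0.28 ± 0.10 (edgeR adjusted p = 0.212). It was −0.18 without siCLAP-1 and −0.40 without siCLAP-3. Catsperz, listed as Tex40, held 163 to 408 counts per library. With the counts of Kcnk4 and Tex40 summed, the log2 fold change was −0.25 ± 0.09 (edgeR adjusted p = 0.209).

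Kcnk2, the gene of TREK-1, stood at 12.9, 12.6 and 14.1 CPM under siNC and at 10.8, 12.6 and 13.96 CPM under siCLAP. The groups overlapped. The log2 fold change was −0.08 ± 0.10, and it was 0.01 without siCLAP-1, the lowest of the 6. Kcnk10, the gene of TREK-2, leaned the other way, at 12.6, 12.6 and 14.7 CPM in siNC and 14.4, 13.6 and 15.8 CPM in siCLAP (log2 fold change 0.14 ± 0.09, edgeR adjusted p = 0.448). It was 0.09 without siCLAP-3 and 0.26 without siNC-3 and siCLAP-2. Here too the groups overlapped, through siNC-3. The interval of 2 standard errors ran from −0.29 to 0.12 for Kcnk2 and from −0.04 to 0.32 for Kcnk10.

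Kcnk18, which encodes TRESK, stood at 17.8, 18.2 and 16.8 CPM under siNC and 14.9, 14.6 and 16.8 CPM under siCLAP. The groups touched without overlapping, as siNC-3 at 16.778 CPM lay just above siCLAP-3 at 16.770 CPM. The log2 fold change was −0.20 ± 0.08 and did not pass (edgeR adjusted p = 0.230). Its interval of 2 standard errors ran from −0.35 to −0.04.

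Kcnk1, the gene of TWIK-1, was at 77.7, 74.3 and 78.7 CPM under siNC and at 90.0, 78.4 and 78.2 CPM under siCLAP. Only siCLAP-1 lay above all siNC libraries. The log2 fold change was 0.10 ± 0.06 (edgeR adjusted p = 0.428) and 0.02 without siCLAP-1. Kcnk3, the gene of TASK-1, was the steadiest member, with a coefficient of variation of 4.68% over the 6 libraries. It was at 22.9, 23.3 and 23.4 CPM in siNC and 22.7, 20.8 and 23.8 CPM in siCLAP, with overlap. Its log2 fold change was −0.05 ± 0.07, with an interval of 2 standard errors from −0.18 to 0.09, and it was 0.00 without siCLAP-2. Kcnk6, below the TPM filter, was read from the fit without that filter, at 18, 31 and 13 counts in siNC and 25, 9.5 and 9.5 counts in siCLAP (log2 fold change −0.36 ± 0.33).

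**Figure D2:**
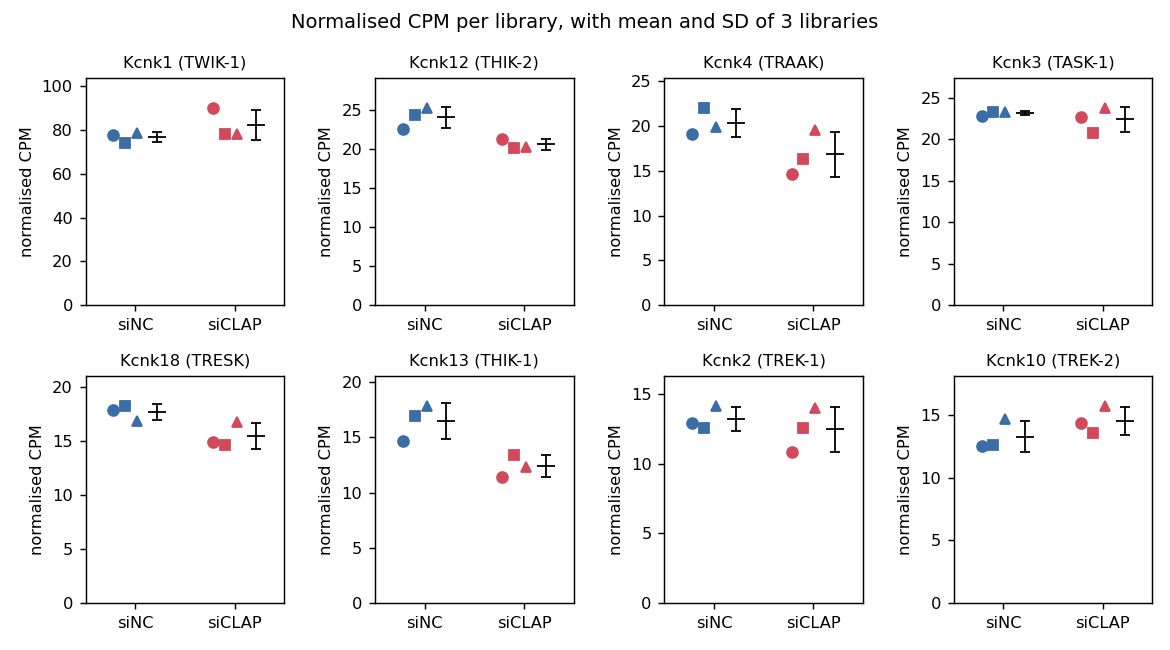
Normalised CPM of the 8 tested members, 1 panel each from 0, with 1 point per library (blue siNC, red siCLAP; circle, square and triangle for replicates 1, 2 and 3) and a black bar for the mean and SD of 3 libraries. Kcnk13 lies at 14.7 to 17.9 CPM in siNC and at 11.5 to 13.4 CPM in siCLAP, while the groups of Kcnk1, Kcnk2, Kcnk3, Kcnk4 and Kcnk10 overlap.

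**Figure D3:**
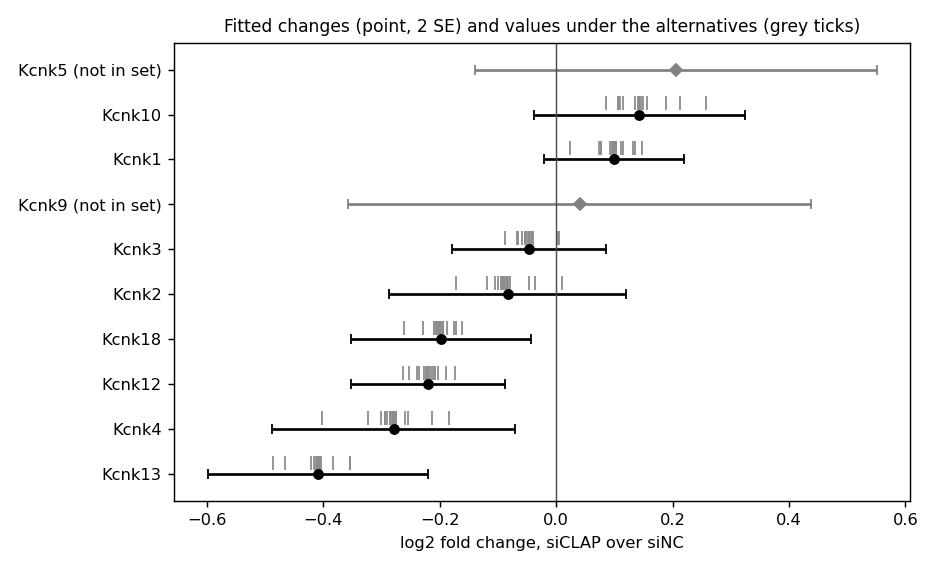
Log2 fold change of siCLAP over siNC for the 8 tested members (black) and the 2 other tested family genes (grey), with bars of 2 standard errors, and grey ticks for the values of members under other processing choices and with libraries left out. Kcnk13, Kcnk4, Kcnk12 and Kcnk18 stay below 0 in all of them, whereas ticks of Kcnk2 and Kcnk3 fall on both sides of 0.

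The makeup of the channel transcripts was compared as shares of the summed TPM of the 9 members. The sum was 208, 208 and 216 TPM under siNC and 202, 192 and 201 TPM under siCLAP. All siCLAP libraries lay below all siNC libraries, by 12.2 TPM on average. The two-sided exact permutation p was 0.1, the smallest that 3 libraries against 3 can give. On CPM the groups of the sum overlapped (difference −8.34 CPM, exact permutation p = 0.3), and without siNC-3 and siCLAP-2 the difference in TPM was −6.17.

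Kcnk1 made up 43.1%, 40.1% and 41.6% of the sum in the siNC libraries and 50.02%, 46.1% and 43.8% in the siCLAP libraries, without overlap. Kcnk13 made up 6.60% ± 0.516 in siNC and 5.23% ± 0.576 in siCLAP, and Kcnk12 15.4% ± 0.533 and 13.8% ± 0.321 (SD, n = 3), also without overlap. Shares of 1 sum move together, so a lower share of some members raises that of others. Kcnk10 had the higher share in siCLAP too, at 2.54% ± 0.150 against 2.21% ± 0.159, without overlap. In CPM the groups of Kcnk1 and Kcnk10 overlapped. How often shares within other gene sets separate was not computed, so the separations in share are descriptive. Kcnk18 made up 7.25% ± 0.439 in siNC and 6.65% ± 0.438 in siCLAP, with overlap (two-sided exact permutation p = 0.2, n = 3 per group). Shares of Kcnk2, Kcnk3, Kcnk4 and Kcnk6 overlapped between the groups.

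**Figure D4:**
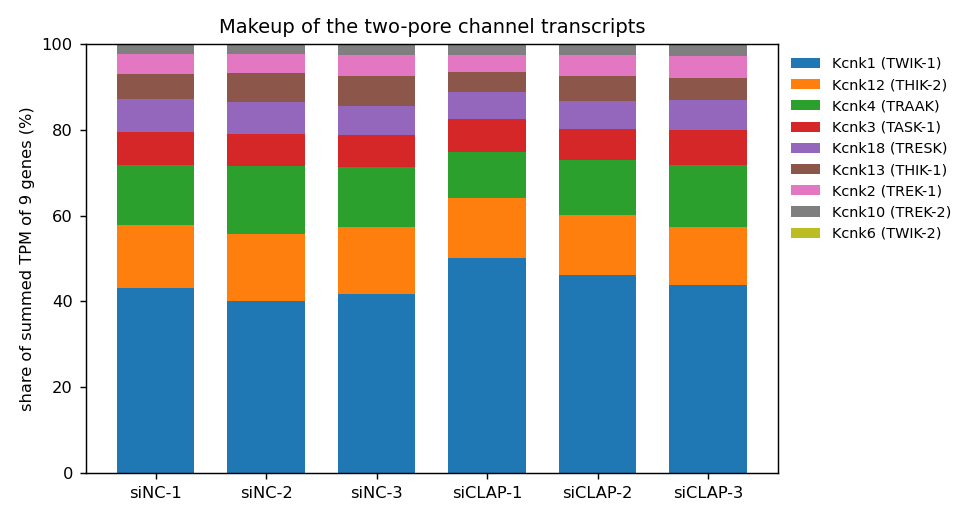
Stacked bars of the share of each member in the summed TPM of the 9 members, in percent, 1 bar per library. Kcnk1 takes 40.1% to 43.1% in the siNC libraries and 43.8% to 50.02% in the siCLAP libraries, and Kcnk6 is too small to see.

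The summed markers of 7 cell type lists did not overlap between the groups, although few of their genes were called. Of all tested genes taken singly, 21.5% did not overlap in CPM. The lists whose sums overlapped are named below. The non-peptidergic nociceptor list, small-diameter pain neurons, summed to 1346 to 1446 TPM in siNC and 1080 to 1153 TPM in siCLAP, with all 8 of its genes detected and lower and 5 of them called in edgeR's test. Pruriceptor markers (7 of 7 detected) summed to 148 to 161 TPM in siNC and 117 to 129 TPM in siCLAP, and C-fibre touch neuron markers (4 of 4) to 177 to 204 and 157 to 172 TPM. Leptomeningeal markers ran from 27.1 to 111 TPM in siNC and 10.4 to 21.1 TPM in siCLAP, with 6 of 7 detected in every library. These 3 lists held 1, 0 and 0 genes called in edgeR's test, the 1 being Sst, and within the C-fibre list Th was lower, at 140 and 112 TPM, while Fam19a4 was at 33.4 and 33.9 TPM. In the other direction, pan-neuronal markers summed to 15995 to 16476 TPM in siNC and 17095 to 17488 TPM in siCLAP. Satellite glia markers (5 of 5) ran from 359 to 380 and 418 to 462 TPM, and myelinated afferent markers (6 of 6) from 2568 to 2952 and 2974 to 3297 TPM. Of these 3 lists the first held 0 called genes and the others 1 each, Ednrb and Pvalb, both higher. Not all members leaned with their sum, as the satellite glia gene Cdh19 was at −0.18 ± 0.06 on the log2 scale and Rbfox3 and Ntrk3 at −0.04 ± 0.04 and −0.07 ± 0.09. No gene of these 7 lists was at 0 in all libraries.

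The sums of all other marker lists overlapped between the groups. They were the peptidergic nociceptor, myelinating Schwann cell, macrophage, endothelial, mural, fibroblast and caudal Hox lists. The erythroid, skeletal muscle, central glia, T cell, B cell, neutrophil and type I interferon lists overlapped as well. Values of some of these lists follow. Peptidergic nociceptor markers summed to 3830 to 3976 TPM in siNC and 3934 to 4306 TPM in siCLAP (5 of 5 detected, 0 called, 1 estimate negative). Calca, the most abundant of them, was at 0.07 ± 0.05 on the log2 scale. Tac1 and Adcyap1 were at 0.34 ± 0.07 and 0.34 ± 0.08, both without overlap in CPM. Caudal Hox genes, which mark position along the spine, summed to 68.5 to 83.1 TPM in siNC and 54.5 to 71.7 TPM in siCLAP (5 of 5 detected, 0 called, median log2 fold change −1.52). Among them Hoxd10 had means of 13.0 and 3.49 TPM, and Hoxd11 of 7.21 and 1.51 TPM, both without overlap. Myelinating Schwann cell markers summed to 3280 to 4367 TPM in siNC and 3266 to 3574 TPM in siCLAP, with 7 of 7 estimates negative and 1 gene called, Egr2, which fell (edgeR adjusted p = 0.0389). The part of the lists given with values here and above in the differences of the channels was not tested.

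Macrophages are relatives of the microglia from which THIK-1 is known, and their summed markers did not separate the groups. The 8 macrophage markers, all detected in every library, summed to 36.0, 26.1 and 43.7 TPM under siNC and to 35.3, 55.7 and 27.4 TPM under siCLAP. None of the 8 was called in edgeR's test, where 1, Cx3cr1, had an unadjusted p under 0.05. Cx3cr1 was higher in siCLAP (log2 fold change 1.06 ± 0.38), with overlap in CPM, and 3 of the 8 estimates were negative. Within each group the library with the highest macrophage sum, siNC-3 and siCLAP-2, was also the highest in Kcnk13. The lower libraries did not keep that order. The macrophage sum was lowest in siNC-2 and siCLAP-3, and Kcnk13 was lowest in siNC-1 and siCLAP-1. The libraries siNC-3 and siCLAP-2 were also those that stood apart in type I interferon genes. The part of macrophages in the level of Kcnk13 was not tested.

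Set against the non-peptidergic nociceptor list, in a ratio chosen after seeing the data, Kcnk13 amounted to 9.29, 9.88 and 10.5 TPM per 1000 TPM of the list in the siNC libraries. It amounted to 8.82, 10.3 and 8.96 in the siCLAP libraries, so the groups overlapped on that scale. Kcnk12, Kcnk4 and Kcnk18 overlapped on it as well, with means of 23.0 and 24.7, 21.9 and 22.7, and 10.9 and 11.9 in siNC and siCLAP. Kcnk1, Kcnk2, Kcnk3 and Kcnk10 were higher in siCLAP on that scale, without overlap. The groups of Kcnk2 only just separated, at 7.225 in siNC-3 and 7.244 in siCLAP-1. The list itself was lower in siCLAP, so a gene with an unchanged level is higher on that scale. Set against the pan-neuronal list, Kcnk13 was at 0.758, 0.867 and 0.947 TPM per 1000 in siNC and 0.544, 0.657 and 0.602 in siCLAP. The groups did not overlap on this second scale, nor did those of Kcnk12, Kcnk4, Kcnk18 and Kcnk3, all lower in siCLAP. The pan-neuronal sum was higher in siCLAP, which lowers ratios to it. The share of all tested genes that separate on either scale was not computed, so these ratios are descriptive.

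**Figure D5:**
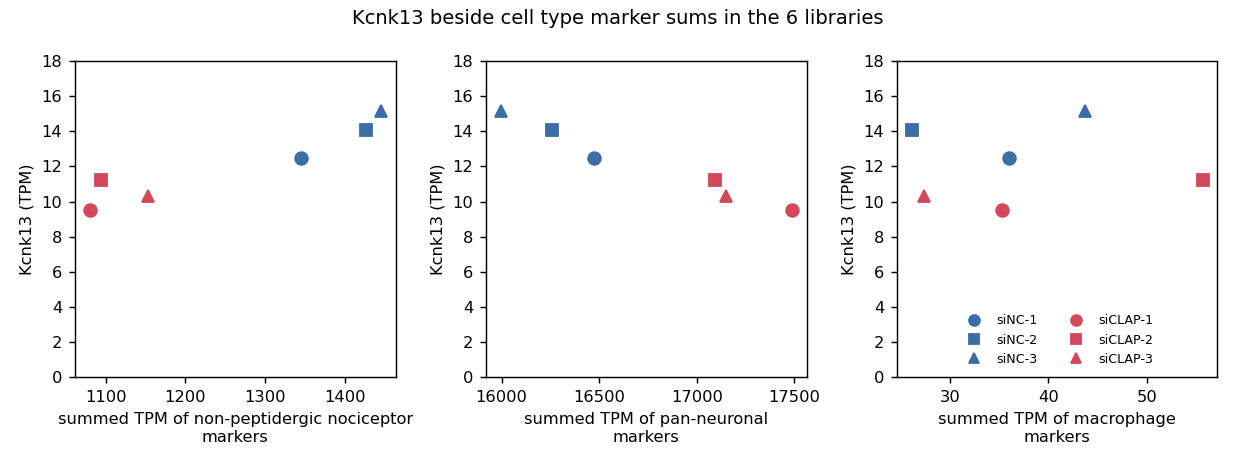
Kcnk13 in TPM (vertical axis, from 0) against the summed TPM of non-peptidergic nociceptor, pan-neuronal and macrophage markers (horizontal axes, not from 0), 1 point per library, blue siNC and red siCLAP. The siCLAP libraries are lower in Kcnk13 and in the non-peptidergic sum, higher in the pan-neuronal sum, and mixed with siNC along the macrophage sum.

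Of the 5 other family genes, only Kcnk5 and Kcnk9, of TASK-2 and TASK-3, passed the TPM filter, and 0 of these 2 were called. Kcnk5 was at 2.52 to 3.45 TPM in siNC and 2.59 to 3.83 TPM in siCLAP (log2 fold change 0.21 ± 0.17), and Kcnk9 at 2.14 to 3.03 and 2.26 to 2.85 TPM (0.04 ± 0.20). Kcnk16, a channel known from pancreatic islets, held 10, 8 and 2 counts in siNC and 12, 10 and 15.5 in siCLAP. Kcnk7 held 5, 10 and 3 counts in siNC and 1, 2 and 2 in siCLAP, and Kcnk15 at most 3 counts in a library. All 3 genes were below the TPM filter. In edgeR without that filter Kcnk16 was at 1.06 ± 0.46 (adjusted p = 0.279), and the counts of Kcnk7 and Kcnk15 under siCLAP were all at or below a floor of 3 counts, so no fold is given.

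Among 32 genes of proteins that regulate these channels or bind them, 30 were tested, 1 fell and 0 rose, with a median log2 fold change of 0.04. At an unadjusted p under 0.05 there were 9 of the 30, beside 17% of all tested genes at that level and 0.293% called. The gene that fell was Plcb3, a phospholipase C that acts below Gq-coupled receptors, from 770 ± 20.7 to 570 ± 18.04 CPM (log2 fold change −0.43 ± 0.04, edgeR adjusted p = 0.00621). Gnaq, the Gq alpha subunit that activates it, was at −0.13 ± 0.04, and Prkce, a protein kinase C, at −0.12 ± 0.05. S100a10, a partner of TASK-1 in its transport to the membrane, was at 0.16 ± 0.05, and Ywhah, a 14-3-3 protein, at 0.13 ± 0.05. None of these 4 passed (edgeR adjusted p = 0.168 to 0.205). Of 30 tested regulators 10 had negative estimates.

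The inward rectifier list and the sodium leak complex, other channels that act on the resting potential, held no called gene. Further channel families were not examined here. In the inward rectifier list 10 of 14 genes were tested, 0 were called in edgeR's test, 1 had an unadjusted p under 0.05 and the median was 0.09. Kcnj14, the smallest p of that list, was at 0.60 ± 0.22, Kcnj8, the pore of a potassium channel of mural cells, at −0.43 ± 0.24, Kcnj10, the inward rectifier of satellite glia, at 0.10 ± 0.06, and Kcnj12 at −0.08 ± 0.05. In the sodium leak complex, which opposes the potassium leak, 4 of 5 symbols were found and tested, 0 were called, 2 had an unadjusted p under 0.05 and the median was −0.00. Its pore, Nalcn, was at −0.08 ± 0.06 and its subunits Unc79, Fam155a and Unc80 at −0.28 ± 0.11, 0.21 ± 0.08 and 0.07 ± 0.07.

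The genes whose profile over the 6 libraries was most like that of Kcnk13, among tested genes with a mean of at least 5 TPM, were Lpar3, Dusp6 and Far2. The root mean square differences of their centred log2 CPM from that of Kcnk13 were 0.035, 0.037 and 0.060. Lpar3 is a lysophosphatidic acid receptor used as a marker of non-peptidergic nociceptors. It stood at 68.6, 86.3 and 86.8 CPM in siNC and 56.1, 66.4 and 60.2 CPM in siCLAP. Its log2 fold change was −0.40 ± 0.09 (edgeR adjusted p = 0.0800). For Kcnk1 the nearest profiles were those of Nme2, Trmt10a and AA474331, with differences of 0.016, 0.025 and 0.030, all highest in siCLAP-1. All of these genes were picked by likeness over the same 6 libraries. A shared order of libraries and a like fold change follow from that choice and test nothing.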

How the data were processed

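Per the labels' protocols, total RNA of L4/5 ganglia went into libraries of the NEBNext Ultra kit for RNA. The submitters' processing notes name mm10, featureCounts 1.6.2 and HISAT2 2.1.0. The annotation and the handling of shared reads are not given there. Each deposited file lists TPM and an expected count for 48401 symbols, and 66.5% of the deposited expected counts were whole within 1e-06. Counts were rounded and tested with edgeR 4.0.16 (quasi-likelihood, TMM, R 4.3.3) on 19141 genes with a mean of at least 1 TPM, with Benjamini-Hochberg adjustment over all of them. Each standard error is the log2 fold change divided by the square root of F. Summed levels and shares were compared by exact permutation over libraries. The script was tested on simulated counts with known changes. It called 32% of 50 genes changed 1.25-fold and 84% of 50 changed 1.5-fold. Differences of the size seen in the members can therefore be missed. The simulation left most genes unchanged and gave no library a pattern of its own, so the rates in the data may differ. Libraries of one group differed by more than counting noise (mean chi-square per gene of 4.07 or more), so no file repeats another; this does not show separate animals.

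The members, the gene lists, the tests and the rule for named genes were chosen with earlier results of these data known. Named were all 14 family genes, called genes and up to 4 more with the smallest p in 3 pathway lists, and the 3 genes with the nearest profile for 2 members. Genes of the marker lists, Tex40 and Gm9899 are given as values beside a result. Alternatives were DESeq2 1.42.0, limma 3.58.1, other scalings, filters and pseudocounts, a replicate block, and libraries left out. Summing Kcnk4 with Tex40, and the ratios to marker lists, were chosen after seeing the data. Sequence of the second loop is not reported here.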

Additional observations from a re-analysis of the deposited data

How the results depend on the processing

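Over all genes tested, 56 were called, and 611 with DESeq2, 133 with robust edgeR, 835 without a TPM filter, 118 at a mean TPM of at least 5, 203 with the replicate block, 13 without siNC-3 and siCLAP-2, and 0 with limma on log2(TPM + 0.5) or log2(TPM + 0.1), where 3028 and 3017 genes had an unadjusted p under 0.05. With 1 library left out the count ran from 0 (without siCLAP-1) to 340 (without siCLAP-3), and the cause was not tested. Of the members, 0 were called, and 1, Kcnk13, with DESeq2 and without a TPM filter (log2 fold change −0.41 in each), the cause being not tested; the number was 0 with each library left out. The estimates of Kcnk13, Kcnk12, Kcnk4, Kcnk18, Kcnk1 and Kcnk10 kept their sign under every alternative run that tested them (Kcnk10 is below a mean of 5 TPM). With 1 library left out, that of Kcnk2 ran from −0.173 (without siCLAP-3) to 0.010 (without siCLAP-1) and that of Kcnk3 from −0.0877 (without siCLAP-3) to 0.0027 (without siCLAP-2), and Kcnk3 was at 0.0055 without siNC-3 and siCLAP-2. Same-numbered libraries did not deviate together over all genes (correlations of −0.044 to 0.066, and −0.107 to 0.087 for libraries of unlike number). Such correlations cannot exclude that the numbers pair the libraries. With the block the edgeR adjusted p of Kcnk13 was 0.0501 and no member was called. The difference of the sum ran from −14.01 to −9.01 TPM and that of the Kcnk18 share from −0.852 to −0.417 percentage points with 1 library left out. With the replicate block these differences were −12.2 TPM (exact sign-flip permutation p = 0.25) and −0.599 percentage points (p = 0.5). Kcnk6 was too shallow, at 9.5 to 31 counts, for any but a large difference to be detected.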
